A study of Mus musculus with 6 samples.

Results

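The 10 genes described here encode the MHC class I molecule, the machinery that loads it with peptide, the immunoproteasome and the transactivator of these genes. They are named by symbol, as members of 1 pathway, with earlier results of these data known, and all 10 were found among the 43629 genes of the count table: the heavy chains H2-K1 and H2-D1, the light chain B2m, the peptide loading genes Tap1, Tap2 and Tapbp, the immunoproteasome subunits Psmb8, Psmb9 and Psmb10, and Nlrc5. RNA came from B16F10 tumours, a transplantable mouse melanoma line grown under the skin of female C57BL/6J mice aged 8 weeks. Animals were dosed daily until control tumours had grown to 2000 mm3, and the tumours of each treatment were combined into 1 pool before RNA was extracted, so each treatment is 1 library. The 6 pools were DMSO + control IgG (the control pool), DMSO + anti-PD-1, AZD5363 + MK1775 + control IgG, AZD5363 + MK1775 + anti-PD1 (here the AKT/WEE1/PD-1 pool, after the targets of its agents), KS100 + control IgG and KS100 + anti-PD-1. AZD5363 inhibits the kinase AKT, MK1775 inhibits the kinase WEE1, KS100 inhibits aldehyde dehydrogenases, and anti-PD-1 blocks an inhibitory receptor of T cells. Every library carries the same host strain, tumour line and sex, and the IgG given with DMSO or with an inhibitor alone is the antibody control.

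MHC class I molecules display peptides from a cell's own proteins to CD8 T cells. The peptides are cut by the proteasome, carried into the endoplasmic reticulum by the TAP transporter and loaded with the help of tapasin onto a heavy chain paired with beta-2-microglobulin. Interferon gamma is known to raise transcription of the whole pathway through IRF1 and NLRC5, and it replaces the catalytic subunits of the constitutive proteasome by those of the immunoproteasome. B16F10 cells are known for low surface class I that interferon gamma can raise.

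The genes lie on 3 chromosomes. In GRCm38, with GENCODE M21 gene models counted from 1, 7 of the 10 are on chromosome 17. Tapbp is at chr17:33915899-33929292 on the plus strand, H2-K1 at chr17:33996017-34000347 on the minus strand and H2-D1 at chr17:35262730-35267499 on the plus strand. Between them, Psmb9 (chr17:34181987-34187764, minus), Tap1 (chr17:34187553-34197225, plus), Psmb8 (chr17:34197721-34201454, plus) and Tap2 (chr17:34203527-34216321, plus) fill a block of 34335 bases. The first exons of Psmb9 and Tap1 face away from each other and their gene models overlap by 212 bases. B2m is at chr2:122147686-122153083 on the plus strand, Psmb10 at chr8:105935735-105938444 on the minus strand and Nlrc5 at chr8:94434356-94527272 on the plus strand.

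Promoter sequence is shown so that the letters of the members can be read beside their values. Their levels were higher together in the AKT/WEE1/PD-1 pool, while ratios of anti-PD-1 alone to control lay on both sides of equality. RefSeq promoter windows on GRCm38.p6, cut to the 250 bases before the transcription start, matched 8 of the 10 genes (all but Tap2 and Nlrc5). The windows of H2-D1, Tap1, Psmb9, Psmb8 and Tapbp lie wholly within exons of longer GENCODE models, so the start meant here is the RefSeq one. The first pair of sequences below gives B2m, at chr2:122147437-122147685 on the plus strand, and H2-K1, at chr17:34000348-34000597 on the minus strand, both written 5′ to 3′. Capitals mark, in order, an interferon-type element, the letters TGACG and a CCAAT box, which reads ATTGG here because it lies on the other strand.
B2m: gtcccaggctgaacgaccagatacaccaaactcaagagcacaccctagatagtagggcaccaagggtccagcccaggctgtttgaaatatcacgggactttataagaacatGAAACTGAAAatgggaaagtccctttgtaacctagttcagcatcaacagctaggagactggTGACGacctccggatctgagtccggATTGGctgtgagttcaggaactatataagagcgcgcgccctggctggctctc
H2-K1: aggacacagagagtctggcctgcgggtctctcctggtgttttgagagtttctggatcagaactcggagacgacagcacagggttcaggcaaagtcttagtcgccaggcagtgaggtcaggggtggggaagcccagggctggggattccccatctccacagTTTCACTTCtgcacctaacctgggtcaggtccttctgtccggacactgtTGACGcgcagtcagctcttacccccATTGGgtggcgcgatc

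For the other genes, stretches of 30 bases around a match show the same kinds of letters. Capitals mark the short interferon-type element of H2-D1 (chr17:35262934-35262963, plus), its TGACG (chr17:35262981-35263010, plus), the TGACG between the RefSeq starts of Tap1 and Psmb9 written in the direction of Tap1 (chr17:34187458-34187487, plus) and the GAS of Psmb8 (chr17:34198088-34198117, plus).
H2-D1 short element: atctcctcagTTTCACTTCtgcacctaacc
H2-D1 TGACG: ccgggacactgaTGACGcgctggcaggtct
Tap1 and Psmb9 TGACG: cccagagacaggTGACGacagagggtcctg
Psmb8 GAS: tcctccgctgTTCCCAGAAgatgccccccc

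Motifs were searched on both strands in the 250 bases before each start, over 32851 promoters. The interferon-stimulated response element (ISRE, the letters GAAA, any 2 bases, then GAAA) was in 2.98% of all promoters and in 1 of the 8 genes, B2m, from 139 to 130 bases before the start. The gamma-activated site (GAS, letters TTCNNNGAA) was in 7.02% of promoters and in 1 of the 8, Psmb8, from 97 to 89 bases before the start. The CCAAT box (CCAAT) was in 33.8% of promoters and in 6 of the 8. The remaining letters were chosen after the sequences had been read, so their counts among the members are a description only. A shorter interferon-type element (GAANNGAAA) was in 6.31% of promoters and in H2-K1 and H2-D1, and TGACG was in 17.8% of promoters and in 5 of the 8, namely B2m, H2-K1, H2-D1, Tap1 and Psmb9. Tap1 and Psmb9 share a single TGACG, since it lies between their RefSeq starts, inside the GENCODE model of Psmb9, 86 to 82 bases before the Tap1 start and 144 to 140 bases before that of Psmb9. A kappaB pattern (GGGA, any base, then TTCCC) was in 0.32% of promoters and in 0 of the 8. It was then loosened to GGGA, any 3 bases and CCC, by eye from the members' own sequences, and in that form it was in 4.77% of promoters and in H2-K1 and H2-D1. Any overlap between matches was kept. A match is a description of letters, not a site or a cause.

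**Figure D1:**
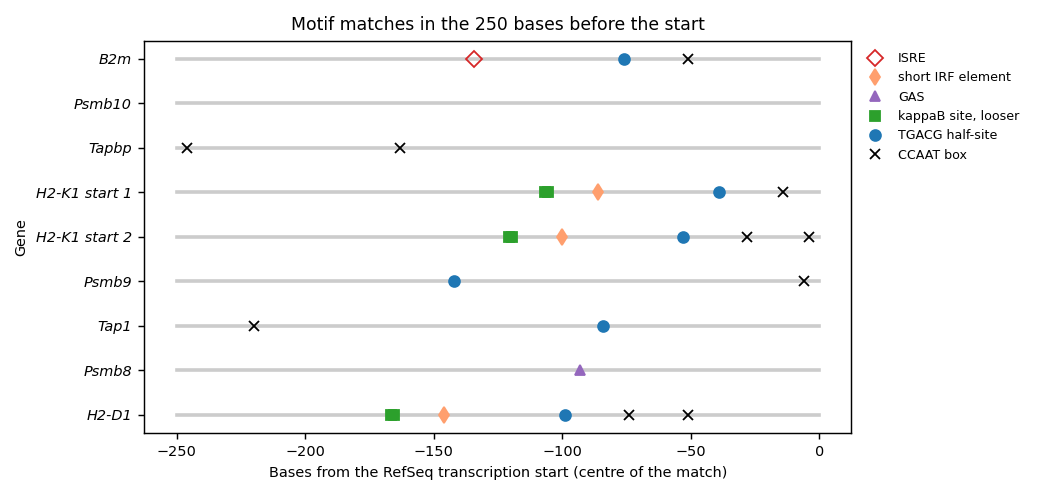
Positions of motif matches in the 250 bases before each RefSeq start, in bases from the start, with 1 row per promoter window and 1 marker per match. H2-K1 has 2 starts. B2m holds the ISRE, Psmb8 the GAS, and TGACG stands in the windows of 5 genes; the kappaB letters shown are the loosened form, since the first form matched 0 of the 8 genes.

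The depth of the libraries differed by 62.4-fold and bounds what each pool can show. The control pool held 1591673 counts, the anti-PD-1 pool 1002088, and the AKT/WEE1/PD-1 pool 338474. The other 3 were shallow, with 26639 counts for AZD5363+MK1775, 44748 for KS100 and 25521 for KS100+anti-PD-1. Counts per 1000000 of the pool total (CPM) are given with 95% exact Poisson intervals, which cover counting error only. The limit for a gene at 0 was set at 3 counts. It equals 1.88 CPM in control, 8.86 in the AKT/WEE1/PD-1 pool and 67 to 118 in the shallow pools. Mitochondrial and ribosomal RNA genes took 1.89% of counts in control, 1.29% with anti-PD-1 and 32.7% in the AKT/WEE1/PD-1 pool, and 13.8% to 17.7% in the shallow pools. Ratios between pools therefore use TMM scaling (trimmed mean of M values), and the ratio by library totals is given beside it where it matters. With 1 library per treatment no pair of pools has a replicate or a p-value. A pair of pools was judged on genes reaching 20 counts in either of them. Higher and lower mean a difference of 2-fold or more whose 95% exact conditional interval stays outside 1.5-fold. Differences between treatments and between single pools cannot be told apart. In bulk tumour RNA, fewer cells of a type and less RNA per cell cannot be told apart either.

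The class I and immunoproteasome genes were higher in the AKT/WEE1/PD-1 pool than in control or with anti-PD-1 alone. Summed over the 10 genes, the level was 1328 CPM (1272 to 1385) in control, 1263 CPM (1195 to 1335) with anti-PD-1 and 5466 CPM (5219 to 5721) in the AKT/WEE1/PD-1 pool. Against control, 9 of the 9 genes with enough counts were called higher and none lower, where 14.9% of all 8059 genes tested were called higher and 7.97% lower. The summed ratio was 6.65 (6.25 to 7.08), and 4.12 by library totals. Psmb8, at 6 counts in control, was tested only through the AKT/WEE1/PD-1 pool. Among genes with 20 counts in control itself, 8 of 8 members were called higher with a median log2 ratio of 3.01, where 13.7% of 7943 genes were called higher with a median of -0.01 over all of them. By library totals the median of all genes tested shifted from -0.00 to -0.69, so every ratio of the AKT/WEE1/PD-1 pool to control is about 1.6 times smaller on that scale, and the 9 genes stay called.

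**Figure D2:**
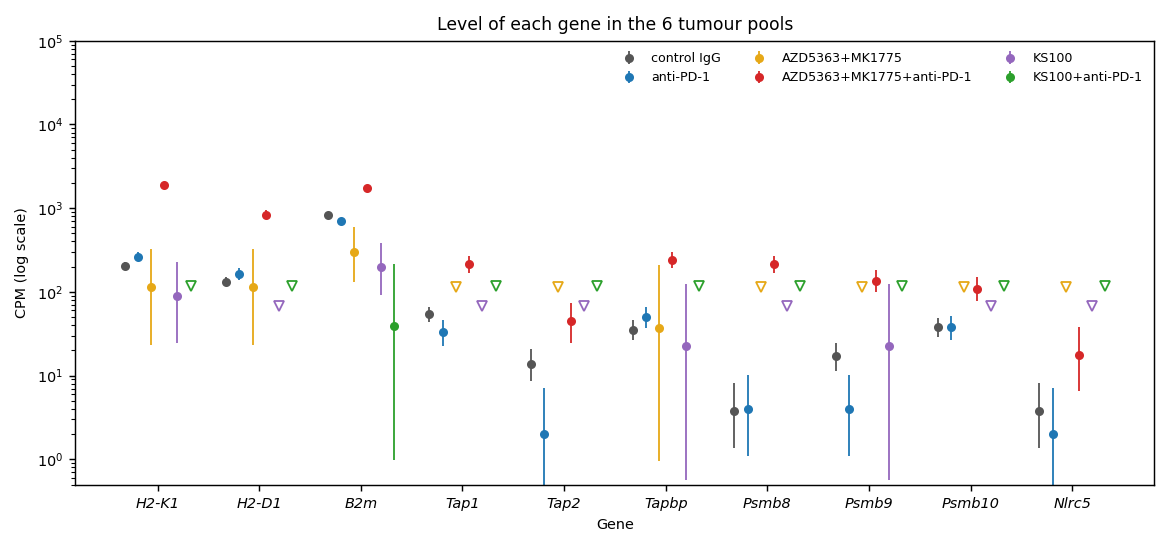
CPM of each gene (log axis) in the 6 tumour pools (AKT/WEE1/PD-1 in red), with 95% exact Poisson intervals of the count; open triangles mark a count of 0 and stand at the level of 3 counts. Among filled points, those of genes counted above 0, the AKT/WEE1/PD-1 pool is the highest for every gene; most points of the 3 shallow pools are limits, and for Tap2, Psmb10 and Nlrc5 limits stand above it.

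The heavy chains H2-K1 and H2-D1 hold the peptide and are what T cell receptors read. H2-K1 had 322 counts (202 CPM) in control, 265 (264 CPM) with anti-PD-1, 3 with AZD5363+MK1775, 643 (1900 CPM) in the AKT/WEE1/PD-1 pool, 4 with KS100 and 0 with KS100+anti-PD-1. The AKT/WEE1/PD-1 pool stands apart from the control and anti-PD-1 pools, whose levels are close. Its H2-K1 level was 15.2 times that of control (13.2 to 17.4), or 9.39 times by library totals. H2-D1 had 212 counts (133 CPM) in control, 164 (164 CPM) with anti-PD-1, 3 with AZD5363+MK1775, 284 (839 CPM) in the AKT/WEE1/PD-1 pool and 0 in both KS100 pools. H2-D1 was 10.2 times the control level (8.49 to 12.2) in the AKT/WEE1/PD-1 pool, 6.3 times by library totals. Within the library, H2-K1 made up 60.3% (56 to 64.5) of the 2 heavy chains' counts in control, 61.8% (57 to 66.4) with anti-PD-1 and 69.4% (66.3 to 72.3) in the AKT/WEE1/PD-1 pool. The last interval does not overlap that of control. The 2 genes are near copies of each other and of other class I genes. Of the 50-base words in the last 300 bases, 0.797% of those in the H2-K1 transcript H2-K1-201 and 17.1% of those in the H2-D1 transcript H2-D1-202 also occur in another gene. Over all protein-coding transcripts this ran from 0 to 23.5% for H2-K1 and from 9.16% to 17.1% for H2-D1, so the split between them is uncertain.

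B2m encodes beta-2-microglobulin, the light chain shared by all class I molecules. B2m had 1315 counts (826 CPM) in control, 704 (703 CPM) with anti-PD-1, 8 (300 CPM, 130 to 592) with AZD5363+MK1775, 593 (1752 CPM) in the AKT/WEE1/PD-1 pool, 9 (201 CPM, 92 to 382) with KS100 and 1 with KS100+anti-PD-1. Among the 9 genes called it had the smallest ratio to control, 3.43 (3.1 to 3.78), or 2.12 by library totals. Heavy chains and light chain thus changed unequally. The heavy chains made up 28.9% (26.8 to 31) of the counts of heavy chains plus B2m in control, 37.9% (35 to 40.8) with anti-PD-1 and 61% (58.5 to 63.4) in the AKT/WEE1/PD-1 pool. These 3 intervals do not overlap, and a share inside 1 library does not depend on the scaling between libraries.

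Tap1 and Tap2 encode the paired subunits of the peptide transporter, and Tapbp encodes tapasin, which holds the empty class I molecule beside it. Tap1 had 86 counts (54 CPM) in control, 33 (32.9 CPM) with anti-PD-1, 72 (213 CPM) in the AKT/WEE1/PD-1 pool and 0 in the 3 shallow pools. Tap2 had 22 counts (13.8 CPM) in control, 2 with anti-PD-1, 15 (44.3 CPM) in the AKT/WEE1/PD-1 pool and 0 in the shallow pools. Tapbp had 56 counts (35.2 CPM) in control, 50 (49.9 CPM) with anti-PD-1, 1 with AZD5363+MK1775, 82 (242 CPM) in the AKT/WEE1/PD-1 pool, 1 with KS100 and 0 with KS100+anti-PD-1. All 3 loading genes were called higher in the AKT/WEE1/PD-1 pool than in control. The ratio was 6.36 (4.58 to 8.8) for Tap1, 5.18 (2.5 to 10.4) for Tap2 and 11.1 (7.82 to 15.9) for Tapbp. By library totals these were 3.94, 3.21 and 6.89. Beside the heavy chains the loading genes took a smaller share than in control. They made up 23.5% (20.4 to 26.8) of the counts of loading genes plus heavy chains in control, 16.5% (13.4 to 20) with anti-PD-1 and 15.4% (13.3 to 17.7) in the AKT/WEE1/PD-1 pool. The last 2 intervals overlap, and both lie below that of control.

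Psmb8, Psmb9 and Psmb10 encode the catalytic subunits of the immunoproteasome, which take the places of Psmb5, Psmb6 and Psmb7. Psmb8 had 6 counts (3.77 CPM) in control, 4 (3.99 CPM) with anti-PD-1, 72 (213 CPM) in the AKT/WEE1/PD-1 pool and 0 in the shallow pools. Its ratio of 91.2 to control (39.9 to 257; 56.4 by library totals) was the largest of the members and ranked 37 among 8059 genes. Psmb9 had 27 counts (17 CPM) in control, 4 (3.99 CPM) with anti-PD-1, 46 (136 CPM) in the AKT/WEE1/PD-1 pool, 1 with KS100 and 0 in the other shallow pools. Psmb9 was 12.9 times the control level (7.88 to 21.7) in the AKT/WEE1/PD-1 pool. Psmb10 had 61 counts (38.3 CPM) in control, 38 (37.9 CPM) with anti-PD-1, 37 (109 CPM) in the AKT/WEE1/PD-1 pool and 0 in the shallow pools. Psmb10, the member of the 3 that lies outside chromosome 17, was 4.61 times the control level (2.98 to 7.04).

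Set against the constitutive subunit of the same catalytic position, all 3 immunoproteasome subunits took a larger share in the AKT/WEE1/PD-1 pool. Psmb8 made up 1.63% (0.601 to 3.51) of Psmb8 plus Psmb5 in control, 1.65% (0.45 to 4.16) with anti-PD-1 and 57.6% (48.4 to 66.4) in the AKT/WEE1/PD-1 pool. Psmb9 made up 3.91% (2.59 to 5.64) of Psmb9 plus Psmb6 in control, 1.06% (0.289 to 2.69) with anti-PD-1 and 53.5% (42.4 to 64.3) in the AKT/WEE1/PD-1 pool. Psmb10 made up 19.8% (15.5 to 24.7) of Psmb10 plus Psmb7 in control, 24.5% (18 to 32.1) with anti-PD-1 and 66.1% (52.2 to 78.2) in the AKT/WEE1/PD-1 pool. At each position the interval of the AKT/WEE1/PD-1 pool lies above those of both other pools. With the 3 positions pooled, the share was 6.88% (5.6 to 8.36) in control, 5.93% (4.37 to 7.83) with anti-PD-1 and 58.1% (51.9 to 64) in the AKT/WEE1/PD-1 pool, and 0 of 20 counts with AZD5363+MK1775, where the interval reaches 16.8%. Psmb5 is uncertain, since 51% of the 50-base words in its last 300 bases also occur in Gm3375.

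**Figure D3:**
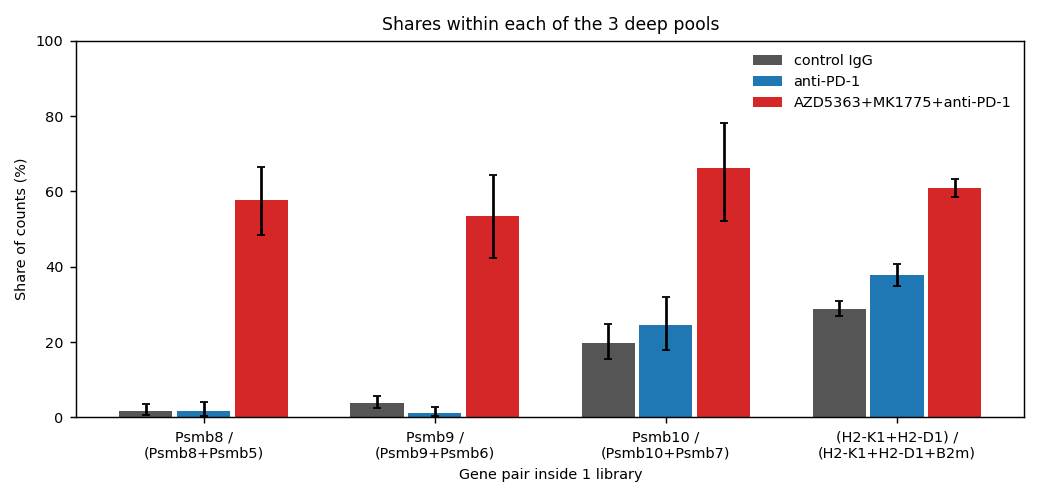
Share of counts (%) of each immunoproteasome subunit among itself and its constitutive counterpart, and of the heavy chains among heavy chains and B2m, in the 3 deep pools; bars start at 0 and whiskers are 95% exact binomial intervals. In all 4 pairs the AKT/WEE1/PD-1 bar is the tallest, at 57.6%, 53.5%, 66.1% and 61%.

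Nlrc5, the transactivator that binds class I promoters, was near the limit of detection. Nlrc5 had 6 counts (3.77 CPM) in control, 2 with anti-PD-1, 6 (17.7 CPM, 6.51 to 38.6) in the AKT/WEE1/PD-1 pool and 0 in the shallow pools. The ratio to control was 7.6 (2.03 to 28.4), and the gene had too few counts to be called.

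The AKT/WEE1/PD-1 pool was also compared with the pools that share anti-PD-1 or both inhibitors with it. Against anti-PD-1 alone, 8 of the 8 genes tested were called higher, where 14% of 7138 genes were called higher and 8.11% lower. The ratio was 11.9 (10.3 to 13.8) for H2-K1, 8.52 (7 to 10.4) for H2-D1, 4.14 (3.71 to 4.63) for B2m, 10.7 (7.01 to 16.7) for Tap1, 8.07 (5.61 to 11.7) for Tapbp and 4.79 (2.96 to 7.74) for Psmb10. By library totals these were 7.18, 5.13, 2.49, 6.46, 4.86 and 2.88. Psmb8 and Psmb9, at 4 counts each with anti-PD-1 and so tested only through the AKT/WEE1/PD-1 pool, had ratios of 88.5 (33.1 to 334) and 56.6 (20.7 to 216). Among genes with 20 counts with anti-PD-1, 6 of 6 members were called higher, where 11.7% of 6953 genes were. This comparison and that with control share the AKT/WEE1/PD-1 library, so they are not separate evidence.

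Against AZD5363+MK1775 alone, 7 of the 8 genes tested were called higher, where 10.9% of 2793 genes were called higher and 3.72% lower. All 8 reached the count minimum only in the AKT/WEE1/PD-1 pool, so this count is a description and nothing is read from it. The 10 genes had 15 counts in the AZD5363+MK1775 pool and the summed ratio was 16.9 (10.2 to 30.2). H2-K1 was 29.3 times higher (9.98 to 142), H2-D1 12.9 times (4.38 to 63.1), B2m 10.1 times (5.11 to 23.6) and Tapbp 11.2 times (1.96 to 448). With 3 counts in place of 0, the ratio was 3.28 for Tap1 and Psmb8 (interval from 2.6) and 2.1 for Psmb9 (from 1.64). Psmb10, at 1.69 (from 1.3) in the same way, was not called. By library totals 3 of the 8 genes (H2-K1, H2-D1 and B2m) stayed called, with ratios of 16.9, 7.45 and 5.83.

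**Figure D4:**
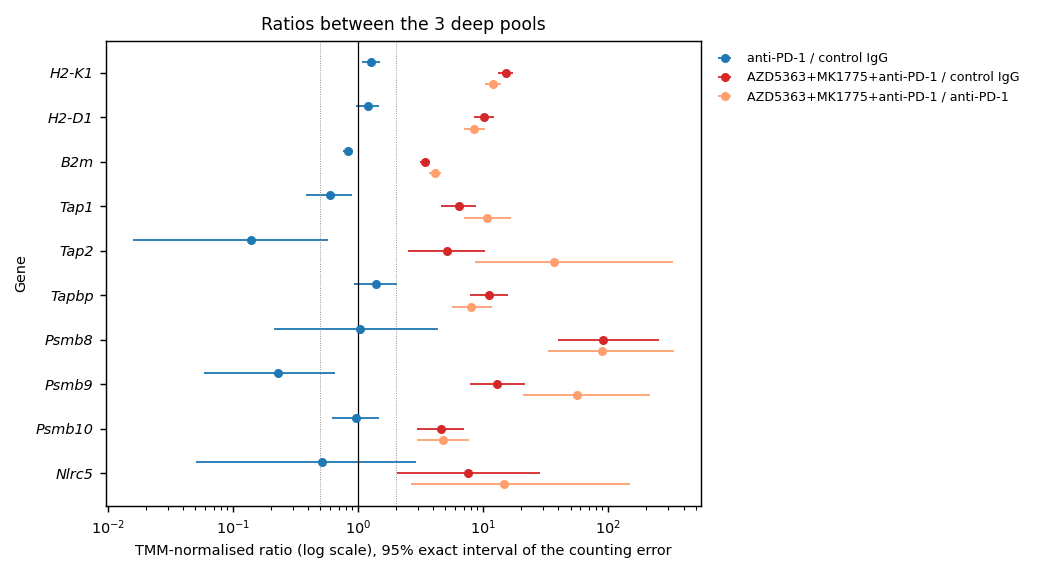
TMM-scaled ratio of each gene (log axis) between the 3 deep pools, with 95% exact intervals of the counting error and dotted lines at a ratio of 2 in either direction. The ratios of the AKT/WEE1/PD-1 pool to control run from 3.43 for B2m to 91.2 for Psmb8, while those of anti-PD-1 to control lie on both sides of equality.

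With anti-PD-1 alone no gene was called higher than control. Against control, 0 of the 8 genes tested were called higher and 2 lower, where 2.69% of 8119 genes were called higher and 2.14% lower. The summed ratio was 0.925 (0.862 to 0.993). Tap2 was called lower at 0.14 (0.016 to 0.571), with 2 counts against 22. Psmb9 was called lower at 0.229 (0.0582 to 0.657), with 4 counts against 27, and by library totals (0.235) its interval no longer cleared 1.5-fold. Tap1 had a ratio of 0.593 (0.384 to 0.895) and B2m 0.827 (0.753 to 0.907), neither of them called. The heavy chains were at 1.27 (1.08 to 1.5) for H2-K1 and 1.19 (0.968 to 1.47) for H2-D1, and Tapbp at 1.38 (0.923 to 2.06). The intervals of Psmb10 (0.962, 0.624 to 1.47) and Psmb8 (1.03, 0.214 to 4.34) include equality.

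In the shallow pools B2m alone was called, lower, in both KS100 pools, and most other members gave limits or intervals that reach above the control level. At the control level by library totals the AZD5363+MK1775 pool would have held 35.4 counts of the 10 genes. It held 15, a ratio of 0.424 (0.237 to 0.701) by library totals and 0.395 (0.221 to 0.652) by TMM. None of the 8 genes tested passed the rule in that pair, where 1.65% of 7948 genes were called higher and 1.22% lower. B2m was at 0.338 (0.146 to 0.668) and H2-K1 at 0.518 (0.106 to 1.53).

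The KS100 pool would have held 59.4 counts at the control level by library totals. It held 15, a ratio of 0.253 (0.141 to 0.417) by library totals and 0.328 (0.183 to 0.542) by TMM. B2m was the 1 gene of 8 called, lower at 0.316 (0.144 to 0.601), where 4.5% of 7951 genes were called higher and 1.8% lower. H2-D1 had 0 counts where the control level gives 5.96 by library totals. With the limit count for a gene at 0 in its place, the ratio of H2-D1 to control was 0.653 by TMM (interval up to 0.81). By library totals it was 0.503 in the same way, and the gene was not called.

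The KS100+anti-PD-1 pool held 1 count of the 10 genes, a B2m read, where the control level gives 33.9 by library totals. B2m was called lower, at 0.0673 (0.0017 to 0.376), where 4.59% of 7948 genes were called higher and 2.64% lower. Against anti-PD-1 alone B2m was again called lower, 1 of 6 genes tested, at 0.0814 (0.00206 to 0.455), where 3.33% of 6959 genes were called higher and 2.9% lower. Against KS100 alone 0 of the 10 genes had enough counts, while 209 genes in all did, of which 4.31% were called higher and 34% lower. Against the KS100+anti-PD-1 pool, 6 of 8 genes were called higher in the AKT/WEE1/PD-1 pool, where 7.1% of 2789 genes were called higher and 1% lower. All 8 reached the count minimum only in the AKT/WEE1/PD-1 pool, so nothing is read from this count, and it fell to 4 of 8 with library totals or DESeq2 size factors. With 3 counts in place of 0, the ratio was 18.4 for H2-K1 (interval from 14.9) and 8.12 for H2-D1 (from 6.56). It was 2.35 for Tapbp (from 1.87) and 2.06 each for Tap1 and Psmb8 (from 1.63). B2m was 50.9 times higher on 1 count (9.1 to 2013).

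The summed level of the 10 genes thus ran, from high to low, from the AKT/WEE1/PD-1 pool to control and anti-PD-1, then AZD5363+MK1775 and KS100, then KS100+anti-PD-1. Control and anti-PD-1 are neighbours whose CPM intervals overlap, as are AZD5363+MK1775 and KS100, and KS100 and KS100+anti-PD-1. Of 8 melanoma markers, 4, 4 and 5 were called lower than control in the AZD5363+MK1775, KS100 and KS100+anti-PD-1 pools, among them Dct, Pmel and Tyrp1 in all 3. Of all genes tested, 1.22%, 1.8% and 2.64% were called lower in these pairs. The members made up 6.08% of the counts of members plus 8 melanoma markers in control, 6.73% with anti-PD-1, 5.47% (3.1 to 8.87) with AZD5363+MK1775 and 6.55% (3.71 to 10.6) with KS100. The share was 34.5% in the AKT/WEE1/PD-1 pool and 1.59% (0.0402 to 8.53) with KS100+anti-PD-1. The intervals of the AKT/WEE1/PD-1 pool (33.2 to 35.8) and, by a small margin, of anti-PD-1 (6.38 to 7.1) lie above that of control (5.83 to 6.33), and the others overlap it.

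A test was possible only by pooling treatments. An additive edgeR quasi-likelihood fit of inhibitor arm and antibody over the 6 pools, with 2 residual degrees of freedom, kept 4912 genes and 4 of the 10 members (H2-K1, H2-D1, B2m and Tap1). It called 0 members at a Benjamini-Hochberg adjusted p under 0.05 in any of its 3 contrasts, where it called 1.28% of genes higher and 0.0611% lower in the AZD5363+MK1775 arm, 7.21% and 0.489% in the KS100 arm and 0.102% and 0.0407% for anti-PD-1. DESeq2 also called 0 members. At an unadjusted p under 0.05 edgeR had 1 member in the AZD5363+MK1775 arm, 2 in the KS100 arm and 0 for anti-PD-1. Of all 4912 genes kept, 423, 931 and 104 reached it in these contrasts, so the members' counts are a description only. In the AZD5363+MK1775 arm the log2 change of H2-K1 was 2.21 (SE 0.975, edgeR adjusted p = 0.419), and in the KS100 arm that of B2m was -2.05 (SE 0.953, edgeR adjusted p = 0.209). H2-D1, at 0 counts in both KS100 pools, had an edgeR adjusted p of 0.0547 in that arm, and the fitted change of a gene at 0 is no bound.

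The AZD5363+MK1775 arm depended on which pools were in the fit. Without the AZD5363+MK1775 pool, whose 26639 counts enter the fit as a whole replicate, the arm is the AKT/WEE1/PD-1 pool alone, assumed to vary like the other pools. The fit then kept 8317 genes and 9 members, Psmb8, Psmb9 and Tapbp among those not kept before, and called 2.33% of genes and 5 members higher. The log2 change of these members was 6.24 for Psmb8, 5.64 for Psmb9, 3.26 for Tap1, 3.69 for H2-K1 and 2.92 for Tapbp. An arm of 1 library shows no variation of its own, so nothing is read from these calls. Psmb8 and Psmb9 were at 213 and 136 CPM in that library, against 3.77 and 17 CPM in control and 3.99 CPM each with anti-PD-1. Without the AKT/WEE1/PD-1 pool the log2 change of H2-K1 in the arm was -0.99 and that of B2m -1.53, where the fit of all pools gave 2.21 and 0.82. Without the anti-PD-1 pool it was 0.74 for H2-K1 and -0.34 for H2-D1. H2-D1 was called lower in the KS100 arm by library totals (edgeR adjusted p = 0.0329) and without the anti-PD-1 pool (edgeR adjusted p = 0.0253), where 1.2% and 0.473% of genes were called lower.

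Other genes of the class I pathway were mixed in the AKT/WEE1/PD-1 pool. Of 19 listed, 11 had enough counts against control, 7 were called higher and 1 lower, with a median log2 ratio of 1.79, beside 14.9% of all genes tested called higher and 7.97% lower. Pdia3, the oxidoreductase of the loading complex, was at 10.3 (8.09 to 13.1), and the nonclassical gene H2-T22 at 7.34 (4.25 to 12.7). Psme1 and Psme2, the subunits of the interferon-induced proteasome activator, were at 4.22 (2.98 to 5.93) and 5.24 (2.81 to 9.59), and the trimming peptidase Erap1 at 4.05 (2.06 to 7.67). Lap3, a cytosolic aminopeptidase, was at 3.45 (2.41 to 4.87) and the chaperone Calr at 2.47 (2.1 to 2.89). Pomp, which helps to assemble the proteasome, was lower at 0.34 (0.277 to 0.413). The summed list was at 1.56 (1.46 to 1.68), and at 0.968 (0.901 to 1.04) by library totals.

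The constitutive proteasome did not move with the immunoproteasome. Of 14 core subunit genes tested, 2 were called higher (Psma4 at 3.01 and Psma7 at 2.96) and 6 lower, where 14.9% of all genes were higher and 7.97% lower, with a median log2 ratio of -0.85 and a summed ratio of 0.664 (0.613 to 0.718). By library totals the summed ratio was 0.411 (0.379 to 0.444). On the TMM scale Psmb5 was at 1.11 (0.817 to 1.49), Psmb6 was called lower at 0.458 (0.324 to 0.631), and Psmb7 was at 0.584 (0.346 to 0.932).

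**Figure D5:**
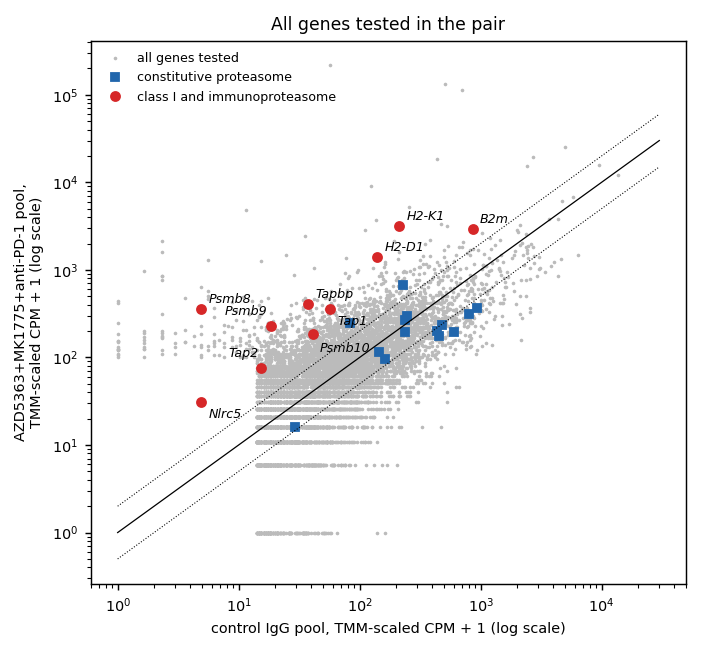
Every gene with at least 20 counts in the control or the AKT/WEE1/PD-1 pool, as TMM-scaled CPM plus 1 in each (log axes); the solid line is equality and the dotted lines a ratio of 2 in either direction. All 10 class I and immunoproteasome genes (red, Nlrc5 with too few counts to be called) lie above the upper dotted line, and 2 of the 14 constitutive proteasome genes (blue) were called higher.

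Of 6 interferon regulatory factor genes listed, 4 were called higher than control in the AKT/WEE1/PD-1 pool, where 14.9% of all genes tested were. Irf3 and Irf7 had too few counts to be called. The ratios were Irf1 at 10.1 (8.12 to 12.7), Irf2 at 8.47 (4.82 to 15), Irf9 at 15.2 (7.73 to 31.2) and Irf8, a factor of myeloid cells, at 55.1 (26.2 to 134). The receptor genes Ifngr1 (1.66, 1.02 to 2.6) and Ifngr2 (1.22, 0.307 to 3.52) were not called. Ifng itself had 1 count in all 6 pools together, in control. Of the type I interferon list, Isg15 was at 11.3 (7.31 to 17.6) and Ifit3 at 13.4 (6.53 to 28.9), 2 of 3 genes tested, and Ifnb1 had 0 counts in every pool. Of the genes for factors that bind class I promoters, 1 of 9 tested was called higher (Creb1 at 2.15, 1.58 to 2.9) and 1 lower (Rfxap at 0.11, 0.00275 to 0.634), shares near those of all genes tested, 14.9% and 7.97%.

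Markers of some other cell types, but not of all, were also higher in the AKT/WEE1/PD-1 pool than in control. The 7 leukocyte markers had 64 counts in control, 93 with anti-PD-1 and 108 in the AKT/WEE1/PD-1 pool, 12.8 times the control level (9.32 to 17.7). Ptprc, the pan-leukocyte marker CD45, had 40 counts in the AKT/WEE1/PD-1 pool and 0 to 3 elsewhere. The 10 T cell markers had 29 counts there, 20 times the control level (11 counts in control), with Cd3e at 3 counts there and 0 elsewhere and Trac at 0 in every pool. A limit of 67 to 118 CPM for a count of 0 in the shallow pools means they cannot show that Ptprc or Cd3e is lower there. The 7 cytotoxic markers had 14 counts against 3 in control and the 9 macrophage markers 128 against 177, which is 35.4 and 5.49 times the control level. The 6 skeletal muscle markers had 2523 counts against 79, 243 times the control level (194 to 307), and the 8 melanoma markers were at 0.816 (0.788 to 0.845). By library totals the melanoma markers were at 0.505 (0.488 to 0.523), the leukocyte markers at 7.94 and the endothelial markers at 0.606. Of the other lists in that pool, the 7 fibroblast markers had 155 counts against 202 (5.83 times the control level), the 8 endothelial markers 47 against 365 (0.978), the 7 dendritic markers 10 against 27 (2.81), the 6 B cell markers 4 against 2 (15.2) and the 5 erythroid markers 22 against 911 (0.183). Markers also moved with anti-PD-1 alone, where the fibroblast markers were at 12.7 times the control level (11 to 14.8), the muscle markers at 13.2 (10.5 to 16.9), the erythroid markers at 6.2 (5.76 to 6.67) and the macrophage markers at 2.77 (2.29 to 3.34). In the KS100+anti-PD-1 pool the T cell markers were at 40.2 times the control level (11 to 126) on 5 counts. The cytotoxic markers were at 59 (4.93 to 515) on 2 counts there, and the muscle markers at 19 (10.6 to 32.5) on 17. The dendritic markers were at 22.9 (8.44 to 54) on 7 counts in that pool, while the leukocyte markers had 0. The part of leukocytes, muscle, other cell types, mitochondrial and ribosomal RNA in the ratios of the class I genes was not tested.

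The genes most like the summed members over the 6 pools, by Pearson's r of log2 of CPM plus 20 among 7307 protein-coding genes, were Naa25 (r = 0.995), Sf3b2 (0.992) and Gtf2h1 (0.990). The 10 closest ran down to 0.977. With the mean of the members' log2 levels in place of their sum, the 10 closest were all other genes, with r up to 0.983. Naa25 had 84, 67, 1, 46, 1 and 0 counts in the pools in the order given at the start. Each r rests on 6 libraries that differ most in depth, so it is a description. Each member against the sum of the others gave r from 0.704 for Psmb8 and 0.707 for Psmb9 to 0.981 for B2m, which holds 62.2% of the summed counts in control.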

How the data were processed

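The deposited table gives unnormalised counts of reads for each Ensembl gene in 6 libraries. Per the labels' protocols, the QuantSeq 3′ FWD kit primed polyadenylated RNA with oligo-dT and kept the fragment next to the transcript end, and a MiSeq read it in 151 cycles. The submitters' processing notes name bcl2fastq, HISAT2 2.1.0, HTSeq and GRCm38. The annotation release, strand setting and handling of multi-mapped reads were not given in the sources used here. Near copies (H2-K1, H2-D1, Psmb5) and overlapping genes (Psmb9 with Tap1, B2m with Patl2, which has at most 1 count) are uncertain. The 92 spike-in rows were all 0 and were left out. GENCODE M21 gave symbols for 42462 of 43629 genes.

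Library totals ran from 25521 to 1591673 counts. TMM factors (edgeR 4.0.16, R 4.3.3) ran from 0.6746 to 1.156 and were applied to each pool's counts of the 4912 genes kept by the fit, not to its library total. In all, 10 pairs of pools were compared by the size rule, and intervals came from SciPy 1.17.1. The additive fit used filterByExpr, and its SE is the log2 change divided by the square root of F. It counts pools of other treatments as replicates. DESeq2 1.42.0, other scalings, other count minimums and each pool left out in turn were tried. Genes named in the text are all 10 members, listed genes past the size rule, and the 10 genes most like the members. A gene of the interferon gamma list, and counts over that list, are not reported here. The members and lists were chosen with earlier results of these data known. The fit was also run on simulated data, and the outcome is not given or used here.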

Additional observations from a re-analysis of the deposited data

Results flagged for a closer look

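Psmb9 was flagged because its calls with anti-PD-1 went in opposite directions in 2 arms. Without an inhibitor it was lower with anti-PD-1 than in control, at a ratio of 0.229 (4 counts against 27). With AZD5363+MK1775 it was called higher with anti-PD-1 than without (46 counts against 0). The ratio was 2.1 (interval from 1.64) with the limit count for a gene at 0 in place of 0. Psmb9 reached the count minimum there only in the AKT/WEE1/PD-1 pool, so that call is a description only. The difference between the arms was not tested, since each treatment is 1 library. Neither call held by library totals, where the values were 0.235 and, with the same limit count in place of 0, 1.21.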

How the results depend on the processing

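The calls of 9 of 9 members higher than control and 8 of 8 higher than anti-PD-1 alone in the AKT/WEE1/PD-1 pool did not move under any scaling or with TMM factors from the 3 deep pools alone, the last chosen after seeing the data. With 20 counts asked of the reference pool, also chosen then, 8 of 8 and 6 of 6 were higher. For anti-PD-1 against control, members lower fell from 2 to 1 with DESeq2 size factors, library totals or totals without mitochondrial and ribosomal RNA genes, Psmb9 being the gene lost. Asking only that the interval exclude equality gave 1 higher and 4 lower there, 1 lower for AZD5363+MK1775 against control, 2 lower for KS100 against control and 2 lower for KS100+anti-PD-1 against anti-PD-1. Library totals and DESeq2 size factors gave 4 of 8 members higher for AKT/WEE1/PD-1 against KS100+anti-PD-1, where TMM gave 6. Library totals gave 3 members higher for AKT/WEE1/PD-1 against AZD5363+MK1775 and 2 lower for KS100+anti-PD-1 against anti-PD-1. In the additive fit, members higher in the AZD5363+MK1775 arm ran from 0 to 5 with 1 pool left out, and members lower in the KS100 arm from 0 to 1, and 1 was lower there by library totals. The pooled catalytic share was 6.88% in control and 5.93% with anti-PD-1. The kappaB letters matched 0 of 8 genes as first written and 2 of 8 once loosened after the sequences were read. No paired analysis was possible because each treatment is 1 library, so the shared number 1 pairs nothing. Depth limits the 3 shallow pools, where a count of 0 allows 67 to 118 CPM.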
